A study of Mus musculus with 39 samples.

Results

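Metallothioneins and the genes that govern zinc in the cell were followed in the lungs of mice fed permethrin or isoniazid. The 6 genes were Mt1 and Mt2 (metallothioneins), Mtf1 (the zinc-sensing transcription factor), Slc30a1 (a zinc exporter), and Slc39a10 and Slc39a14 (zinc importers), out of 18193 genes named on the arrays. They were chosen by symbol with results of these arrays known: that Mt1 was higher with both compounds is part of the reason for the choice. For each gene, the probe set (the group of probes that reads a transcript) with the highest mean log2 signal over all 39 arrays was used, among those annotated to that gene alone. Differences of the 6 genes from the control diet are therefore given as a description with no test, and tests are kept for dose, compound and time. These tests use the same treated lungs, and that of time is built from differences from control. They are therefore not free of the choice of genes.

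The animals, female Crlj:CD1(ICR) mice of an outbred stock, ate a powdered diet, each with its own array of whole-lung RNA. Isoniazid, an antituberculosis drug that the labels call a positive control for tumour induction, was given at 2500 ppm to 5 mice for 7 days and to 5 for 14 days. The control diet held neither compound and was also given to 5 mice for each time. Permethrin, a pyrethroid insecticide, was given at 5000 ppm to 5 mice for each time, and at 10000 ppm to 5 mice for 7 days and 4 for 14 days. Mice of the 7-day groups were 11 weeks old and those of the 14-day groups 12 weeks, so that age and duration cannot be told apart. All treated groups of a time were set against the same 5 control lungs, so the differences from control share those arrays.

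Metallothioneins are small cysteine-rich proteins that bind zinc and copper and buffer free zinc. When zinc rises, Mtf1 binds it, moves to the nucleus and drives transcription through short metal response elements upstream of Mt1, Mt2 and Slc30a1, while in mouse cells Slc39a10 is held down by Mtf1. Glucocorticoids, inflammatory cytokines and oxidative stress also raise metallothionein transcripts in mouse tissues, lung included.

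All 6 genes passed the filter on dim signals, a mean log2 signal of 3.43, which left 13020 genes to test. Lung was checked on 11 markers of its epithelium and endothelium, whose mean log2 signal lay between 7.05 for Foxj1 and 13.2 for Scgb1a1. Correlations between pairs of arrays ran from 0.862 to 0.945. On 7 arrays, all of 14-day lungs, the log2 ratio of the 3' to the 5' probe set of Gapdh, a gauge of RNA quality, was above 0.7. These were replicates 3 and 5 of isoniazid, 4 and 5 of control, 4 and 5 of permethrin 5000 ppm, and 3 of permethrin 10000 ppm. These are called the high-ratio arrays.

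Mt1 and Mt2 lie close together on mouse chromosome 8, with the same orientation. Mt1 (chr8:94178883-94180327) was read by a probe set whose suffix, _s_at, marks probes that may match several transcripts. A further Mt1 probe set was dim, at a mean log2 signal of 2.20, and was not used. Mt2 (chr8:94172618-94173567) has a single probe set. The 250 bases before the annotated start of each gene are shown because both genes moved together and both are textbook targets of Mtf1. They come from RefSeq (GRCm38.p6), run 5′ to 3′ on the plus strand, and carry in capitals each match to the core of the metal response element, TGCACNC or TGCGCNC on either strand.
Mt1, chr8:94178839-94179088: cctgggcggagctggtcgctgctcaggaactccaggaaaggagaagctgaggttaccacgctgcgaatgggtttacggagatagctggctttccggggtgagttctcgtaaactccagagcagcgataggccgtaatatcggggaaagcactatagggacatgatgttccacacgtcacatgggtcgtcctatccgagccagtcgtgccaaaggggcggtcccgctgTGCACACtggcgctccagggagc
Mt2, chr8:94172368-94172617: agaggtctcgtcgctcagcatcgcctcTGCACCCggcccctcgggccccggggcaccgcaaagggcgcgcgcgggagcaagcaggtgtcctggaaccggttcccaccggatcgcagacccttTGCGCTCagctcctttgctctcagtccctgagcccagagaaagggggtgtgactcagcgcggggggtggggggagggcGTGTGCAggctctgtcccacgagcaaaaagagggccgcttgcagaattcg
Mt1 has 1 match before its start, at bases -23 to -17 counted from the first transcribed base as 1, and 2 more just after it, at bases 3 to 27: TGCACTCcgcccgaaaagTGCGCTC. The annotated span of Mt1 opens upstream of this start, so the window printed lies partly inside it. The first transcribed base is taken here from the annotated RefSeq start, and where transcription begins in these lungs was not measured. Matches placed after this start could lie before a start farther downstream, which was not searched. The counts for Mt1 hold for this window alone. Mt2 has 3 matches before its start, the nearest at bases -50 to -44, and 1 after it, at bases 5 to 11: GTGCGCA. Over a window of 300 bases (250 before and 50 after the start), at least as many matches as in Mt1 occurred in 1.97% and as many as in Mt2 in 0.517% of the 32851 promoters of the RefSeq table, against 25.7% with any. The core of the antioxidant response element, TGACNNNGC on either strand and overlapping no metal motif here, was found once in Mt2, at bases -79 to -71, and in 12.4% of all promoters. Slc30a1 had 2 metal motifs and 1 antioxidant motif, while Mtf1 and both entries of Slc39a10 had none of the metal motifs. A match is a run of letters and not evidence of binding, and its absence says only that these letters are not in this window.

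Mt1 was higher in treated than in control lungs at both times, with the smallest difference at permethrin 5000 ppm. After 7 days of isoniazid, the log2 signal of Mt1 was 9.75, 10.06, 9.80, 9.74 and 9.23 in the 5 lungs, against 9.08, 8.86, 8.97, 8.38 and 8.24 in the 5 control lungs of that time. The lowest isoniazid lung thus stood above the highest control lung. With permethrin 5000 ppm the 7-day values were 8.74, 9.01, 9.05, 8.69 and 9.37, and with 10000 ppm they were 9.44, 9.37, 9.83, 9.50 and 9.52. The lower dose overlapped the controls and the higher dose did not. How many of all genes tested separate from control in this way was not counted. Full separation is therefore a description only, here and below. The log2 difference from control at 7 days was 1.01 (SE 0.20) for isoniazid, a fold of 2.02, then 0.27 (SE 0.20) for permethrin 5000 ppm and 0.83 (SE 0.20) for 10000 ppm. Whole lung was measured, so a change in the cells that make up the tissue and a change in RNA per cell cannot be told apart.

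After 14 days, Mt1 was at 9.59, 9.51, 9.54, 8.91 and 10.47 with isoniazid, against 8.94, 9.12, 8.73, 9.13 and 8.91 in controls. Replicate 4 of isoniazid lay within the control range and replicate 5, a high-ratio array, was the highest of all 39 lungs. With permethrin 5000 ppm the values were 9.42, 9.25, 9.01, 9.49 and 9.66, and with 10000 ppm they were 9.57, 10.19, 10.02 and 9.13. The lowest lung at 10000 ppm was level with the highest control lung. The log2 difference from control was 0.64 for isoniazid (SE 0.20), 0.40 for permethrin 5000 ppm (SE 0.20) and 0.76 for permethrin 10000 ppm (SE 0.22). Without the 7 high-ratio arrays these became 0.41, 0.30 and 0.70. The isoniazid difference was also 0.42 without replicate 5 alone.

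Mt2 followed Mt1 at 7 days and was scattered at 14. Isoniazid lungs had log2 signals of 9.40, 10.22, 9.33, 8.83 and 8.90 for Mt2 at 7 days, against 8.01, 8.73, 8.25, 7.76 and 7.88 in controls. Every isoniazid lung was above every control lung. Permethrin 5000 ppm gave 8.36, 8.64, 7.91, 8.80 and 8.61, and permethrin 10000 ppm gave 9.02, 8.68, 9.15, 9.01 and 8.65. The higher dose overlapped the controls through a single control lung, at 8.73. The log2 difference from control was 1.21 for isoniazid, 0.34 for permethrin 5000 ppm and 0.77 for permethrin 10000 ppm (SE 0.29 each).

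At 14 days Mt2 stood at 8.67, 9.08, 8.81, 7.99 and 9.49 with isoniazid, against 9.06, 8.84, 7.78, 8.51 and 8.001 in controls. It stood at 8.19, 8.38, 8.68, 8.69 and 8.35 with permethrin 5000 ppm, and at 8.56, 9.93, 9.41 and 7.98 with 10000 ppm. All treated groups overlapped the controls, and the 4 lungs at 10000 ppm spread over nearly the whole range of the gene. The log2 differences from control were 0.37 (SE 0.29) for isoniazid, 0.02 (SE 0.29) for permethrin 5000 ppm and 0.53 (SE 0.31) for permethrin 10000 ppm. Without the 7 high-ratio arrays they were 0.02, -0.14 and 0.26. Single lungs also carried weight: isoniazid was at 0.20 without its replicate 5 and 0.57 without its replicate 4, and permethrin 10000 ppm at 0.21 without its replicate 2 and 0.86 without its replicate 4.

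**Figure D1:**
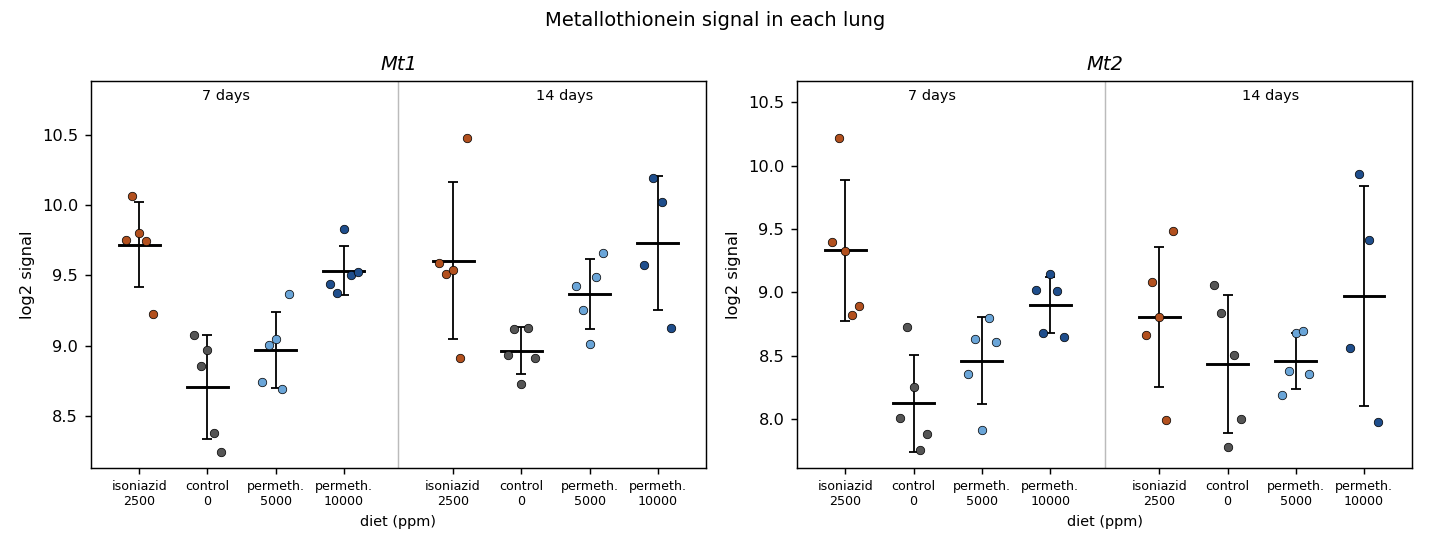
Log2 signal of Mt1 (left) and Mt2 (right) in each lung, with the group mean as a bar and the SD as whiskers, for isoniazid 2500 ppm, control, permethrin 5000 ppm and permethrin 10000 ppm at 7 and 14 days. At 7 days both genes stood above every control lung with isoniazid, and Mt1 also with permethrin 10000 ppm, while the 14-day groups of Mt2 overlapped.

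Ordered by group mean, Mt1 was highest with permethrin 10000 ppm at 14 days (9.73 ± 0.48, SD, n = 4) and isoniazid at 7 days (9.72 ± 0.30, n = 5), and lowest in controls at 7 days (8.70 ± 0.37, n = 5). Of the 7 steps between neighbours in this order, 1 was wider than the pooled SD within groups of 0.34, the step of 0.40 between permethrin 5000 ppm at 14 days and at 7 days. For Mt2 the order ran from isoniazid at 7 days (9.33 ± 0.56) to controls at 7 days (8.13 ± 0.38), and no neighbouring step exceeded its pooled SD of 0.49.

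The dose of permethrin was tested with limma across all 13020 genes, with Benjamini-Hochberg adjustment over all of them. Mt1 was higher at 10000 than at 5000 ppm by 0.56 at 7 days (SE 0.20, adjusted p = 1), and the lowest lung at 10000 ppm, 9.37, was level with the highest at 5000 ppm. At 14 days the difference was 0.36 (SE 0.22, adjusted p = 0.994) with overlapping groups. Over both times it was 0.46 (95% interval 0.16 to 0.76, adjusted p = 0.999), and 8 of 9 lungs at 10000 ppm were above the mean at 5000 ppm of their time. Mt2 differed by 0.44 at 7 days, 0.51 at 14 days and 0.47 over both (95% interval 0.05 to 0.90, adjusted p = 0.999). The dose difference at 14 days was 0.21 for Mt1 and 0.19 for Mt2 without replicate 2 of permethrin 10000 ppm, and 0.56 and 0.84 without its replicate 4. Over both times Mt2 was at 0.32 without the first of these lungs and 0.64 without the other.

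None of the 6 genes passed an adjusted p of 0.05 for dose. For comparison, 0% of the genes tested passed at 7 days, 0% at 14 days and 0.00768% (1 gene) over both times, and the p before adjustment was below 0.05 for 269, 493 and 436 genes.

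Between compounds, the metallothioneins at permethrin 10000 ppm and at isoniazid 2500 ppm were close, with intervals that leave room for moderate differences. The doses of the compounds differ, so the comparison is of these diets and not of potency. Mt1 was also chosen for being higher with both compounds, so its closeness here is not independent of that choice. Permethrin 10000 ppm minus isoniazid was -0.18 for Mt1 at 7 days (95% interval -0.60 to 0.23) and 0.12 at 14 days (-0.32 to 0.56). Over both times it was -0.03 (-0.33 to 0.27), and 3 of 9 permethrin lungs were above the isoniazid mean of their time. For Mt2 it was -0.43 (-1.02 to 0.15), 0.16 (-0.46 to 0.78) and -0.13 (-0.56 to 0.29).

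Permethrin 5000 ppm stood lower than isoniazid in both metallothioneins, by a margin that missed the threshold. Averaged over both times, Mt1 was at 9.17 with permethrin 5000 ppm and 9.66 with isoniazid, a difference of -0.49 (SE 0.14, adjusted p = 0.158), and 1 of 10 permethrin lungs was above the isoniazid mean of its time. Mt2 was at 8.46 with permethrin 5000 ppm and 9.07 with isoniazid, a difference of -0.61 (SE 0.20, adjusted p = 0.258), with 0 of 10 lungs above. None of the 6 genes passed in any comparison of compounds. The share of all genes tested that passed was 0.184% at 7 days, 0.2% at 14 days and 0.353% over both times for permethrin 10000 ppm minus isoniazid, and 0.415% for permethrin 5000 ppm minus isoniazid.

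Duration was tested as the difference from control at 14 days minus that at 7 days. For isoniazid this was -0.37 in Mt1 (SE 0.29, adjusted p = 1) and -0.84 in Mt2 (SE 0.41, adjusted p = 1). For permethrin 5000 ppm it was 0.14 in Mt1 and -0.31 in Mt2, and for permethrin 10000 ppm it was -0.06 and -0.24 in the same genes, with SEs of 0.29 to 0.42. Both metallothioneins were somewhat higher in the older controls, by 0.26 for Mt1 (adjusted p = 0.619) and 0.31 for Mt2 (adjusted p = 0.687) at 14 days against 7 days.

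None of the 6 genes passed limma's test for duration, in the 3 treatments or in controls. Across all genes, 0% passed for isoniazid, 0% for permethrin 5000 ppm and 0% for permethrin 10000 ppm, with 384, 371 and 293 genes below 0.05 before adjustment. In controls, 14 days against 7 days, 0.115% of genes passed.

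**Figure D2:**
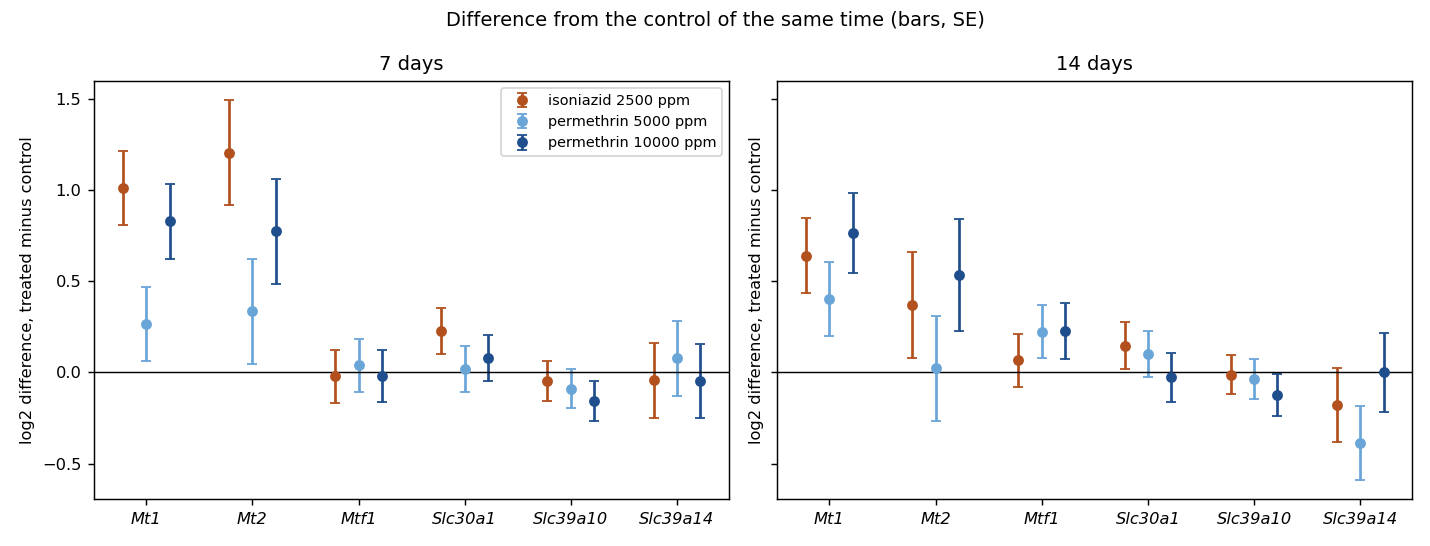
Log2 difference of each of the 6 genes from the controls of the same time, at 7 days (left) and 14 days (right), for isoniazid 2500 ppm, permethrin 5000 ppm and permethrin 10000 ppm; bars are SEs from limma. The metallothioneins lay up to 1.21 above control, whereas the other 4 genes lay between -0.39 and 0.23.

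The differences of the sensor and the transporters from control lay between -0.39 and 0.23. Mtf1 (chr4:124802549-124849800), which drives the metal response, had log2 signals of 5.95 to 6.93 over the 39 lungs. Its highest group mean was 6.77, with permethrin 5000 ppm at 7 days, and its lowest was 6.45, in controls at 14 days. The widest differences from control were 0.23 with permethrin 10000 ppm and 0.22 with 5000 ppm, both at 14 days, where control replicates 4 and 5, of high 3' to 5' ratio, had 5.95 and 6.19 and the other control lungs 6.66 to 6.76. Without the 7 high-ratio arrays these differences were 0.02 and 0.07. At 7 days its differences from control ran from -0.02 to 0.04.

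Slc30a1 (chr1:191906697-191913248), which carries zinc out of the cell and is another target of Mtf1, was highest with isoniazid. At 7 days its log2 signals with isoniazid were 9.30, 9.24, 9.40, 9.48 and 9.27, against 8.93, 9.09, 9.21, 9.13 and 9.20 in controls. Every isoniazid lung was above every control lung, by a mean of 0.23 (SE 0.13), and the share of all genes that separate so was not counted. At 14 days the groups overlapped, at 8.96, 8.68, 9.26, 9.40 and 8.92 with isoniazid and 8.88, 9.00, 9.31, 8.59 and 8.70 in controls, a difference of 0.15 (SE 0.13), which was -0.05 without the 7 high-ratio arrays. The second probe set of Slc30a1, dimmer at a mean of 5.88, differed by 0.39 at 7 days and 0.33 at 14 days with isoniazid (SE 0.16 each). With permethrin the differences of the brighter probe set were 0.02 and 0.10 at 5000 ppm and 0.08 and -0.03 at 10000 ppm, for 7 and 14 days. The second probe set differed by 0.32 and -0.001 at 5000 ppm (SE 0.16 each) and by 0.15 and 0.16 at 10000 ppm (SE 0.16 and 0.17). At 7 days with 5000 ppm both probe sets were above control by unlike amounts, and the gap between them was not tested.

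Slc39a10 (chr1:46807544-46925776), an importer at the cell surface, lay below control in every treated group by small amounts. The differences were -0.05 and -0.01 with isoniazid, -0.09 and -0.03 with permethrin 5000 ppm, and -0.16 and -0.12 with permethrin 10000 ppm, for 7 and 14 days, with SEs of 0.11. Without control replicate 3 of 14 days, those of isoniazid and permethrin 5000 ppm at that time were 0.04 and 0.02. Under the alternatives with no single lung left out, they ran from -0.08 to 0.12 and from -0.07 to 0.07. The direction of these 14-day differences thus depended on the processing. The values of Slc39a10 over all lungs ran from 8.05 to 8.81, and all treated groups overlapped their controls. Slc39a14 (chr14:70303467-70351452), which imports zinc, iron and manganese and in mouse liver is raised by interleukin-6, was the dimmest of the 6 genes and varied more within groups (pooled SD 0.33) than Mtf1, Slc30a1 and Slc39a10 (0.23, 0.20 and 0.17). Its lowest group was permethrin 5000 ppm at 14 days, with 5.31, 5.82, 5.64, 5.36 and 4.88, against 6.11, 6.05, 5.64, 5.36 and 5.79 in controls, a difference of -0.39 (SE 0.20). In the other treated groups its differences from control ran from -0.18 to 0.08. At 14 days it was lower with isoniazid (-0.42) than with permethrin 5000 ppm (-0.34) once the 7 high-ratio arrays were left out. A dimmer Slc39a14 probe set that passed the filter, at a mean of 3.66, went the other way at 14 days. It differed from control by 0.07 with permethrin 5000 ppm and 0.22 with isoniazid (SE 0.31 each). Its probe sets below the filter differed by -1.14 and -0.55 with permethrin 5000 ppm and by -1.53 and -0.71 with isoniazid (SE 0.73 and 0.88). For Mtf1 and these transporters, no step between neighbouring group means exceeded the pooled SD within groups.

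**Figure D3:**
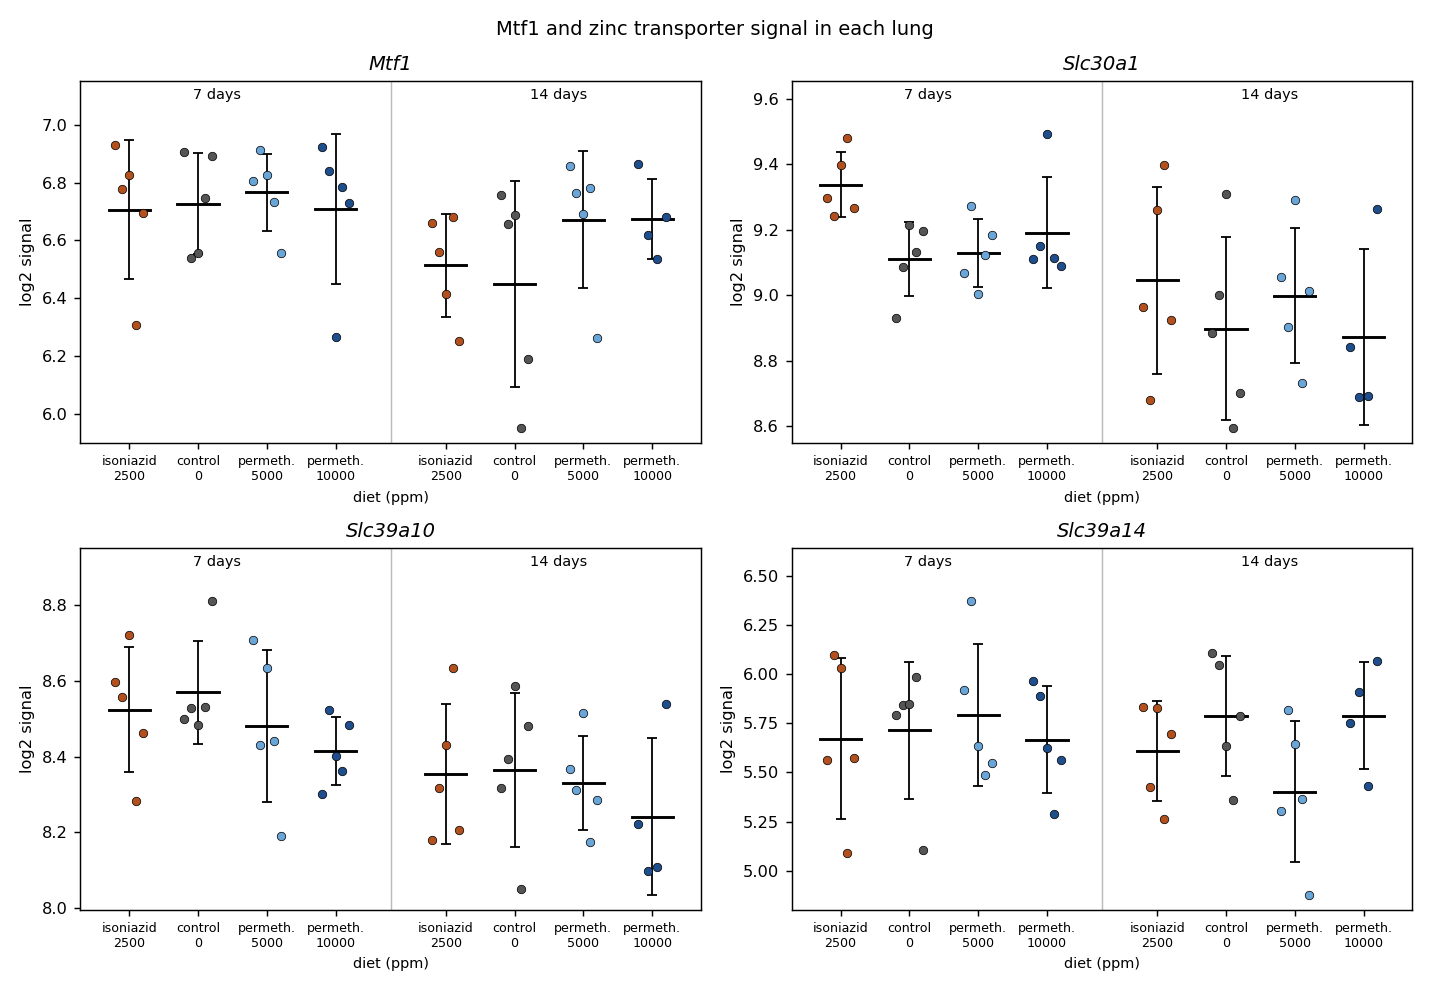
Log2 signal of Mtf1, Slc30a1, Slc39a10 and Slc39a14 in each lung, by diet and time, with the group mean as a bar and the SD as whiskers. Isoniazid lungs at 7 days stood above every control lung for Slc30a1, and the other treated groups overlapped their controls in all 4 genes.

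Within groups, lungs with more Mt1 also had more Mt2. After each group's mean was taken away, the 2 genes correlated over 39 lungs with Pearson's r = 0.66 (permutation p = 0.00051, adjusted p = 0.00425) and Spearman's rho = 0.55 (permutation p = 0.00203, adjusted p = 0.0254). Permutations were drawn within groups, and p-values were adjusted over the 25 relations computed. Without the 2 lungs farthest from the median of Mt1, r was 0.58. It was 0.48 over the 20 lungs of 7 days and 0.75 over the 19 of 14 days. Without the 7 high-ratio arrays r was 0.63, with an adjusted p of 0.0721.

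Mt1 also followed the Gapdh 3' to 5' ratio within groups (r = 0.59, permutation p = 0.00048, adjusted p = 0.00425). Spearman's rho was 0.47 (permutation p = 0.00498, adjusted p = 0.039). Without the 2 lungs farthest from the median of the ratio, r was 0.50. Without the 7 high-ratio arrays r was 0.42 (adjusted p = 0.176), and with arrays centred on their medians it was 0.34 (adjusted p = 0.219). The mean ratio was 0.16 with isoniazid, 0.31 in controls, 0.15 with permethrin 5000 ppm and 0.32 with 10000 ppm at 7 days. At 14 days it was 0.71, 0.59, 0.67 and 0.49 in the same groups. With the ratio as a covariate, the differences of Mt1 from control were 1.07, 0.33 and 0.83 at 7 days and 0.60, 0.37 and 0.81 at 14 days, for isoniazid, permethrin 5000 ppm and 10000 ppm. Mt2 did not pass with this ratio (r = 0.26, permutation p = 0.183, adjusted p = 0.286; rho = 0.12, adjusted p = 0.673).

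Among the other members, Slc39a10 ran against Mt1 within groups (r = -0.59, permutation p = 0.00044, adjusted p = 0.00425). Spearman's rho was -0.54 (permutation p = 0.0014, adjusted p = 0.0254). Without the 2 lungs farthest from the median of Mt1, r was -0.54. It was -0.59 with an adjusted p of 0.0721 when the 7 high-ratio arrays were left out. With arrays centred on their medians r was 0.02, so this relation depended on the normalization. Mtf1 had r = -0.40 (permutation p = 0.00616, adjusted p = 0.0385) with rho = -0.32 past no threshold (adjusted p = 0.195), r = -0.32 without the 2 farthest lungs, r = -0.26 (adjusted p = 0.392) without the 7 high-ratio arrays, and r = -0.03 under median centring. Neither Slc30a1 (r = -0.41, permutation p = 0.0346, adjusted p = 0.124) nor Slc39a14 (r = 0.06, permutation p = 0.753, adjusted p = 0.877) passed.

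**Figure D4:**
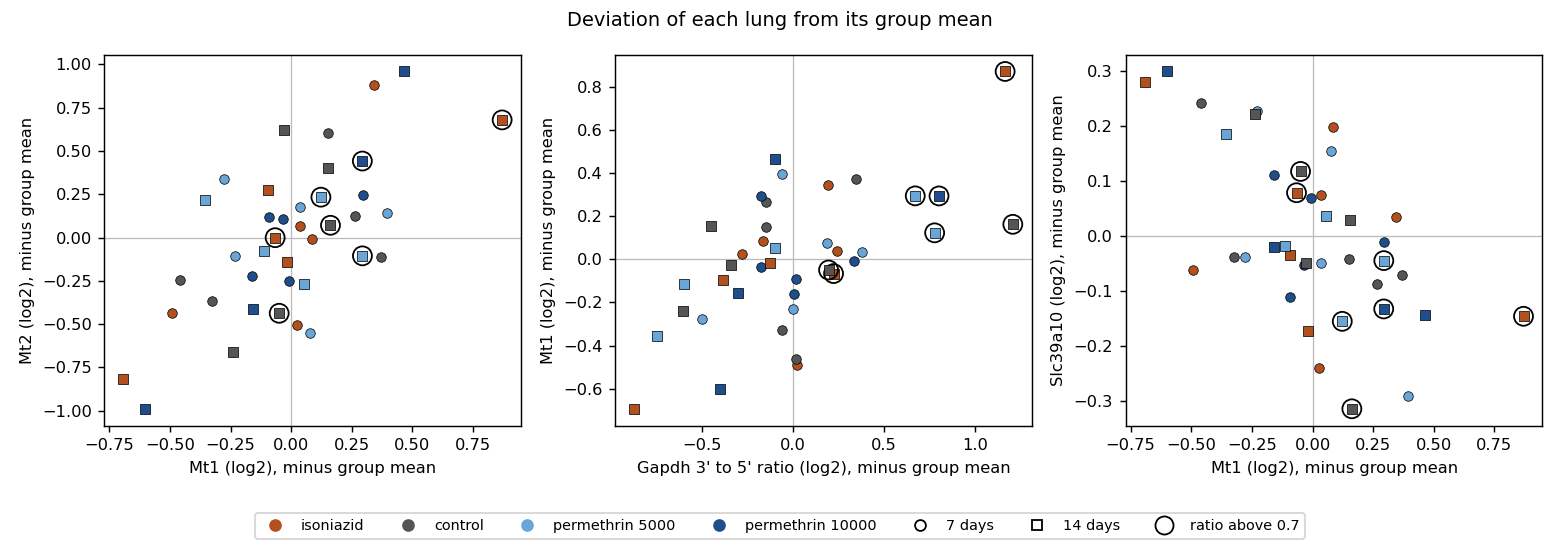
Deviation of each of the 39 lungs from its group mean in log2 units: Mt2 against Mt1 (left), Mt1 against the Gapdh 3' to 5' ratio (middle) and Slc39a10 against Mt1 (right). Colour gives the diet, circles 7 days, squares 14 days, and large rings the 7 arrays with a ratio above 0.7; Mt1 and Mt2 deviate together in lungs of both times (r = 0.66).

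The genes most like Mt1 were named by Pearson's r over the 39 arrays, as a description. With group means taken away, these were Endog (0.78), Abhd11 (0.74), Pgd (0.71), Pnpla2 (0.70) and Pcbp4 (0.70), and Mt2 ranked at 21 of 13019 genes. As measured, with group differences kept, they were Pnpla2 (0.79), Mt2 (0.77), Selenbp1 (0.76), Mok (0.73) and Cxcl17 (0.72). Pnpla2 encodes the lipase that starts triglyceride breakdown, Pgd an enzyme of the pentose phosphate pathway, and Cxcl17 a chemokine of mucosal tissues. For Mt2, with group means taken away, Mt1 ranked first at 0.66, followed by Cables2 (0.64), Slc45a1 (0.60), Gpt2 (0.59) and Csrp2 (0.59).

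Genes known to respond to glucocorticoids, cytokines or the presence of other tissue were set beside the metallothioneins. These lists, too, were chosen with earlier results of these arrays known, so tests of their genes against control are not independent support. A list of 15 glucocorticoid-induced genes, without Mt1 or Mt2, had a mean log2 level of 9.60 (range 9.10 to 9.95) with isoniazid at 7 days, against 8.97 (8.76 to 9.20) in controls, with 15 of 15 genes above control and 0 past the threshold. With permethrin at 7 days it was at 9.10 (8.58 to 9.35) for 5000 ppm and 9.41 (9.22 to 9.73) for 10000 ppm, where 12 and 15 of 15 genes were above control. At 14 days it was at 9.31 (9.06 to 9.47) with isoniazid, 8.88 (8.17 to 9.44) in controls, 9.11 (8.72 to 9.44) with permethrin 5000 ppm and 9.10 (8.85 to 9.38) with 10000 ppm. At that time 14, 12 and 9 of the 15 genes were above control with isoniazid, permethrin 5000 ppm and 10000 ppm. Over both times Fkbp5 (1.03, adjusted p = 0.0266) and Map3k6 (1.04, adjusted p = 0.0141) passed limma's test with isoniazid, and none did with permethrin.

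Within groups the glucocorticoid list had r = 0.04 with Mt1 (permutation p = 0.795, adjusted p = 0.877) and r = 0.34 with Mt2 (permutation p = 0.0575, adjusted p = 0.18; rho = 0.41, permutation p = 0.0206, adjusted p = 0.086). With its level as a covariate, the differences from control at 7 days were 0.98 for Mt1 and 0.86 for Mt2 with isoniazid, 0.26 and 0.26 with permethrin 5000 ppm, and 0.81 and 0.53 with permethrin 10000 ppm. At 14 days Mt1 was at 0.62, 0.39 and 0.75 and Mt2 at 0.13, -0.11 and 0.41 above control, for isoniazid, permethrin 5000 ppm and 10000 ppm. The Mt1 differences were nearly as large with the covariate as without it, and those of Mt2 were smaller. The list itself was higher in the treated groups, so this fit cannot separate its level from treatment. The part of glucocorticoids in the metallothionein signal was not tested.

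A list of 10 interleukin-6 and acute-phase genes, of which Il6 was below the filter, was at 8.19 (7.73 to 8.66) with isoniazid and 7.76 (7.59 to 7.90) in controls at 7 days, with 8 of the 9 tested genes above control and 0 past the threshold. With permethrin at 7 days it was at 7.89 (7.55 to 8.14) for 5000 ppm and 7.73 (7.32 to 8.22) for 10000 ppm, where 7 and 6 of the 9 genes were above control. At 14 days it was at 8.01 (7.68 to 8.48) with isoniazid, 8.14 (7.97 to 8.37) in controls, 8.10 (7.98 to 8.30) with 5000 ppm and 8.11 (7.78 to 8.75) with 10000 ppm. At that time 5, 5 and 3 of the 9 genes were above control with isoniazid, permethrin 5000 ppm and 10000 ppm. Within groups the relation of this list to Mt1 had rho = 0.47 (permutation p = 0.00624, adjusted p = 0.039) and r = 0.40 (permutation p = 0.0337, adjusted p = 0.124). Without the 2 lungs farthest from the median level of the list, r was 0.34.

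Transcripts of cardiac muscle, which a dissected lung can carry, were higher in treated than control lungs at 14 days, when the control group was low. The mean level of 12 markers was 8.57 (range 7.77 to 9.58) with isoniazid, 7.38 (6.40 to 8.26) in controls, 8.49 (8.01 to 9.22) with permethrin 5000 ppm and 8.51 (7.08 to 9.84) with 10000 ppm, and 12 of 12 genes lay above control in each treated group with 0 past the threshold. At 7 days the level was 8.77 (8.63 to 9.00) with isoniazid, 8.93 (7.82 to 9.84) in controls, 8.75 (8.27 to 9.34) with 5000 ppm and 8.83 (8.45 to 9.18) with 10000 ppm. Liver markers, 11 of 12 measured (all but Mup1) and 9 tested (Ahsg and Fgb were below the filter), had levels taken over the 11. They were at 3.71 (3.17 to 4.11) with isoniazid, 5.46 (4.37 to 6.004) in controls, 5.03 (3.67 to 6.08) with 5000 ppm and 5.61 (4.08 to 6.59) with 10000 ppm at 14 days. At 7 days they were at 5.15 (3.29 to 6.84), 6.05 (3.67 to 7.21), 5.35 (3.87 to 6.91) and 5.04 (4.01 to 6.42) in the same groups. Among these markers Serpina1c passed limma's test, with isoniazid over both times (-2.91, adjusted p = 0.0133).

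With the liver and cardiac levels as covariates, the Mt1 differences from control were 1.06, 0.32 and 0.87 at 7 days and 0.48, 0.22 and 0.57 at 14 days, for isoniazid, permethrin 5000 ppm and 10000 ppm. All were still positive, and those of 14 days were smaller. At 14 days the cardiac level was higher in each treated group and the liver level was lower with isoniazid. This fit therefore cannot separate these levels from treatment. Within groups, r with Mt1 was 0.36 for the cardiac list (permutation p = 0.101, adjusted p = 0.251) and 0.15 for the liver list (permutation p = 0.388, adjusted p = 0.539). Mt2 was at 1.32, 0.44 and 0.89 at 7 days and 0.26, -0.18 and 0.27 at 14 days. The part of these tissues in the metallothionein signal was not tested.

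The remaining marker lists were of clock, brown fat, neutrophil, alveolar macrophage and lung genes. The 9 clock genes had a mean log2 level of 6.98 (6.94 to 7.04) with isoniazid, 6.39 (6.07 to 6.70) in controls, 6.53 (6.36 to 6.79) with permethrin 5000 ppm and 6.87 (6.33 to 7.21) with 10000 ppm at 7 days. At 14 days they were at 6.97 (6.50 to 7.46), 6.50 (6.07 to 6.82), 6.55 (5.87 to 7.19) and 6.73 (6.47 to 7.05) in the same groups. Every isoniazid lung at 7 days was thus above every control lung in this mean, with 7 of the 9 genes above control. The mean holds genes that moved in opposite directions, so it is not a measure of clock phase. With isoniazid over both times, 3 clock genes passed limma's test against control: Tef (0.67, adjusted p = 0.0112) and Per3 (1.05, adjusted p = 0.0204) above it and Npas2 (-1.13, adjusted p = 0.0361) below it. Single genes of the marker lists are named here after their values were seen.

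Brown fat markers, 5 measured and 4 tested (Ucp1, the defining one, was below the filter), had levels taken over the 5. They were at 5.98 (4.53 to 6.95) with isoniazid, 5.51 (3.75 to 7.25) in controls, 5.55 (3.95 to 6.70) with permethrin 5000 ppm and 5.83 (4.31 to 7.06) with 10000 ppm at 7 days. At 14 days they were at 5.47 (4.32 to 6.96), 4.19 (3.30 to 4.98), 4.79 (3.88 to 5.14) and 5.98 (3.83 to 8.16) in the same groups. At that time all 4 tested genes lay above control in each treated group, with 0 past the threshold.

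The 3 neutrophil markers were at 9.78 (8.43 to 10.97) with isoniazid, 8.97 (8.62 to 9.28) in controls, 8.95 (7.70 to 9.93) with permethrin 5000 ppm and 9.16 (8.33 to 10.37) with 10000 ppm at 7 days, and at 9.27 (8.50 to 10.41), 9.37 (8.20 to 10.16), 9.13 (8.46 to 9.58) and 9.61 (8.96 to 10.89) at 14 days. The group means of the 5 alveolar macrophage markers lay between 7.74 and 8.27, and those of the 11 lung markers between 11.05 and 11.22, with 0 genes past the threshold against control. These 5 lists had r between -0.37 and 0.39 with Mt1 within groups, with permutation p-values that passed no adjusted threshold (adjusted p of 0.124 to 0.877). Their part in the metallothionein signal was not tested beyond this.

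None of the other zinc-handling genes passed the test. Of 23 other metallothionein and zinc transporter genes, 17 were above the filter, and 0 of the 17 passed limma's test in any comparison. Against control, 9, 9 and 8 of the 17 were above control with isoniazid at 7 days, 14 days and over both, 8, 9 and 7 with permethrin 5000 ppm, and 8, 9 and 9 with permethrin 10000 ppm, with list medians of -0.02 to 0.02. The share of all genes that passed limma's test was 0.0461% at 7 days, 0.0307% at 14 days and 0.392% over both times for isoniazid. It was 0.0922%, 0.131% and 0.223% for permethrin 5000 ppm, and 0.238%, 0.215% and 0.499% for permethrin 10000 ppm. A count of 0 among 17 genes is near this background. The median of all genes tested lay between -0.01 and 0.02 in these comparisons.

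Of these genes the 2 of smallest p in each comparison over both times are given, though none passed. Slc39a4, the importer that takes up dietary zinc in the gut, was at 7.43 with isoniazid and 6.95 in controls over both times, a difference of 0.47 (SE 0.13, adjusted p = 0.0905). Its difference from control was 0.46 with permethrin 5000 ppm (adjusted p = 0.264) and 0.39 with 10000 ppm (adjusted p = 0.359). At 14 days its values were 6.98, 7.40, 7.98, 7.81 and 7.63 with isoniazid, against 7.25, 6.73, 7.47, 6.47 and 6.78 in controls, and the groups overlapped.

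Slc39a8, an importer of zinc and manganese known to be abundant in lung, was at 9.87 with permethrin 10000 ppm and 10.2 in controls over both times, a difference of -0.34 (SE 0.10, adjusted p = 0.161). At 14 days its 4 values at 10000 ppm, 9.39, 9.79, 9.93 and 9.87, lay below all 5 controls, 10.54, 10.25, 10.25, 10.41 and 10.15. It also had the smallest p of the list for permethrin 10000 ppm against 5000 ppm (-0.20, adjusted p = 0.999) and against isoniazid (-0.31, adjusted p = 0.308). The remaining named genes were Slc39a11 with isoniazid (0.15 against control, adjusted p = 0.683), and Slc39a2 with permethrin 5000 ppm (-0.51 against control, adjusted p = 1, and -0.64 against isoniazid, adjusted p = 0.374) and with 10000 ppm (-0.45 against isoniazid, adjusted p = 0.963). Slc39a6 (-0.09 for 10000 against 5000 ppm, adjusted p = 0.999) and Slc39a9 (0.10 for 5000 ppm against isoniazid, adjusted p = 0.793) completed them.

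Among 4 other genes reported to depend on Mtf1 (Selenow, Ndrg1, Csrp1 and Gclc), Gclc alone passed the test, and it did so with permethrin. This list was also chosen with earlier results of these arrays known, so the tests of Gclc are not independent support. Gclc encodes the catalytic subunit of the enzyme that starts glutathione synthesis and is also a target of the oxidative-stress factor Nrf2. At 7 days its log2 signal was 10.78, 10.13, 10.09, 11.45 and 10.76 with permethrin 10000 ppm, against 9.30, 9.23, 9.51, 9.04 and 8.71 in controls. Every lung at 10000 ppm was above every control. The difference was 1.48 (SE 0.26, limma adjusted p = 0.00132) at 7 days, 0.98 (SE 0.27, adjusted p = 0.232) at 14 days and 1.23 (SE 0.19, adjusted p = 7.56e-05) over both.

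With permethrin 5000 ppm, Gclc stood at 9.84, 10.08, 10.17, 10.36 and 10.69 at 7 days and 9.78, 9.75, 9.50, 10.88 and 10.78 at 14 days, above the control means of both times. The difference from control over both times was 0.93 (SE 0.18, adjusted p = 0.00697), and 0.67 (adjusted p = 0.155) without the 7 high-ratio arrays. With isoniazid Gclc was at 9.00, 9.21, 8.72, 9.48 and 9.44 at 7 days and 8.62, 9.53, 9.91, 8.98 and 8.39 at 14 days. Its difference from control over both times was -0.12 (SE 0.18, adjusted p = 0.899).

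Gclc differed between the compounds. Permethrin 10000 ppm minus isoniazid was 1.47 at 7 days (adjusted p = 0.00172), 1.24 at 14 days (adjusted p = 0.0362) and 1.36 over both (SE 0.19, adjusted p = 1.24e-05), and permethrin 5000 ppm minus isoniazid was 1.05 over both (SE 0.18, adjusted p = 0.00119). The 14-day call was lost when replicate 1, 2, 3 or 4 of permethrin 10000 ppm or replicate 1, 4 or 5 of isoniazid was left out (1.06 to 1.27). Mt1, for the same comparison of 10000 ppm with isoniazid, was at -0.03. Selenow, Ndrg1 and Csrp1 passed in no comparison, and their differences from control over both times ran from -0.09 to 0.08.

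**Figure D5:**
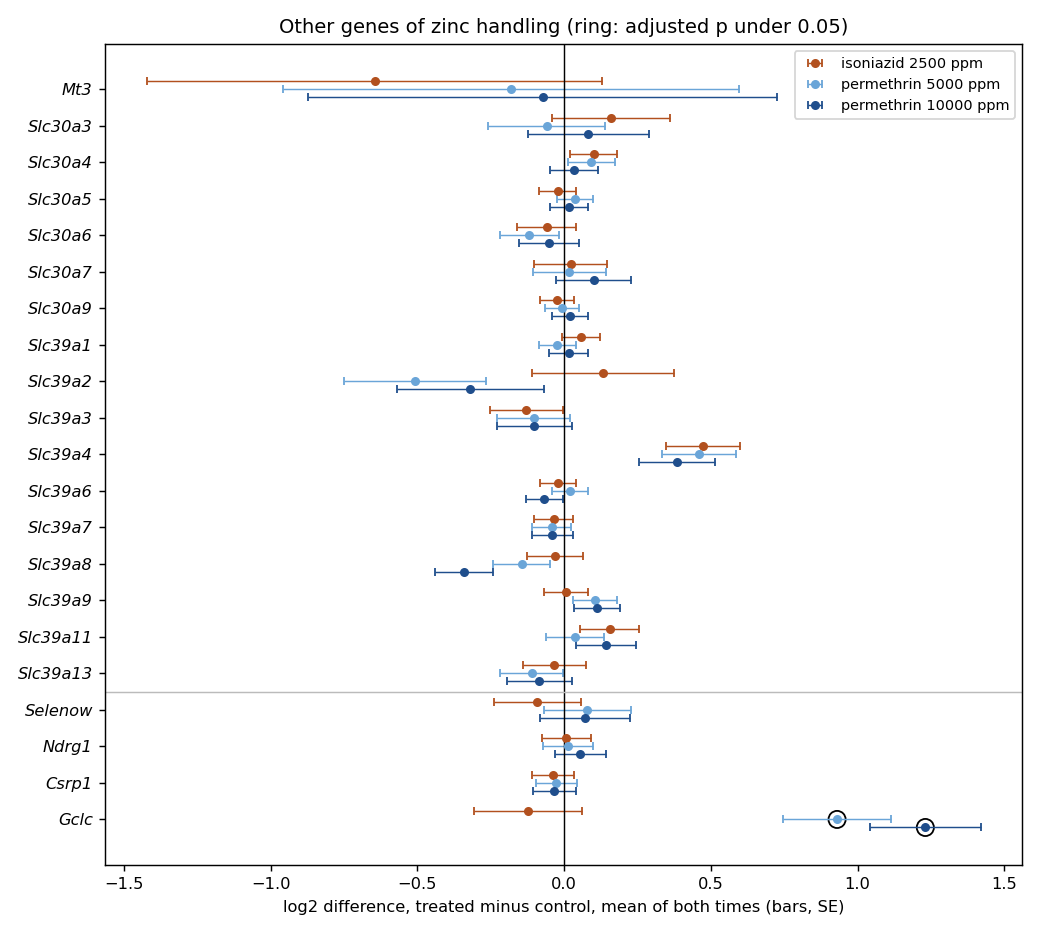
Log2 difference from control over both times for 17 other metallothionein and zinc transporter genes (above the line) and 4 genes reported to depend on Mtf1 (below it), for isoniazid 2500 ppm, permethrin 5000 ppm and permethrin 10000 ppm; bars are SEs from limma and rings mark an adjusted p under 0.05. Rings stand at Gclc with both permethrin doses, at 0.93 and 1.23.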

How the data were processed

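Total RNA of 39 mouse lungs, stored in a stabilization solution, was labelled with biotin with a kit priming from the 3' end and hybridized to Affymetrix arrays, per the labels' protocols. The deposited values are linear signal intensity of each probe set, made by the authors with MAS5 per the submitters' processing notes; its version was not given. Their trimmed means lie near 99 on each array. Array medians ran from 17.4 to 26.2. The number of arrays limits the precision.

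Titles of the samples gave groups and replicate numbers. No 2 arrays were identical. Values were quantile normalized, taken to log2 with no pseudocount, and reduced to 1 probe set per gene (highest mean). Of 45101 probe sets, 64 are controls, 34945 carry 1 symbol and 932 several, by the platform annotation. Genes in the upper 60% of probe sets by mean signal (10.8 in linear units or more) were tested with limma 3.58.1 in R 4.3.3: 8 group means, empirical Bayes with a trend, Benjamini-Hochberg adjustment over 13020 genes at 0.05, and 20 comparisons. Relations within groups used 100000 permutations. The script was tested on simulated data. Positions and promoters are RefSeq's (GRCm38.p6); Slc39a14 was not searched.

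The 6 genes and all gene lists were chosen with earlier results of these data known. Named from the lists were the genes past the threshold and, for each comparison over both times, the 2 of smallest p. Likeness to Mt1 and Mt2 was ranked by Pearson's r, with the top 5 named. Alternatives were the deposited scaling, median centring, a pseudocount of 4, other filters (none, upper 40%), every probe set, the compared groups only, array weights, the replicate block, each lung left out, the 7 arrays with a Gapdh 3' to 5' log2 ratio above 0.7 (high-ratio arrays) left out, and covariates (liver and cardiac levels, glucocorticoid-induced genes). The 3' to 5' ratio as a covariate was chosen after seeing the data.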

Additional observations from a re-analysis of the deposited data

Results flagged for a closer look

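Of 48 pairs of a gene and a group, 4 held a lung whose gap to the nearest of the others, divided by the range of the group, was above the critical value of 0.71 for 5 samples. Chance alone gives about 1 in 20 such groups. For Mtf1, replicate 5 of permethrin 5000 ppm at 14 days stood at 6.26, below the nearest lung at 6.69 (share of the range 0.719), on a high-ratio array. For Slc30a1, replicate 3 of permethrin 10000 ppm at 7 days stood at 9.49, above the nearest lung at 9.15 (0.853). Replicate 5 of the 7-day controls stood out in both importers: at 8.81 in Slc39a10, above the nearest lung at 8.53 (0.854), and at 5.10 in Slc39a14, below the nearest at 5.79 (0.782). The same control lung had the lowest Mt1 signal of all 39 lungs, 8.24. Without it, the Mt1 difference from control at 7 days was 0.90 with isoniazid, 0.15 with permethrin 5000 ppm and 0.71 with permethrin 10000 ppm. None of the metallothionein groups held such a lung.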

How the results depend on the processing

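The differences of Mt1 from control were positive under all alternatives tried, as low as 0.41 for isoniazid at 14 days without the 7 high-ratio arrays and 0.15 for permethrin 5000 ppm at 7 days without control replicate 5. Mt1 was chosen for this rise in the same arrays, so these refits are not independent support for it. The Mt2 difference with permethrin 5000 ppm at 14 days, 0.02 as reported, ranged from -0.18 to 0.03 with no single lung left out. No gene of the 6 passed the test of dose, compound or time under any alternative. Differences near 0 changed sign. For Mt1, the effect of permethrin 10000 ppm at 14 days minus 7 days (-0.06) was 0.0285 under median centring, that of permethrin 5000 ppm (0.14) was -0.0942 with liver and cardiac levels as covariates, and permethrin 10000 ppm minus isoniazid over both times (-0.03) was 0.0552 without the 7 arrays. The correlation of Mt1 with Slc39a10 was 0.0173 under median centring, and that of Mt1 with Mt2 was 0.63 (adjusted p = 0.0721) without the 7 arrays. With each lung left out in turn, the range was -0.22 to 0.14 for the Mt1 effect of permethrin 10000 ppm at 14 minus 7 days and -0.56 to 0.0886 for that of Mt2. For permethrin 10000 ppm minus isoniazid it was -0.0489 to 0.34 (Mt1) and -0.16 to 0.49 (Mt2) at 14 days, and -0.12 to 0.0789 (Mt1) and -0.29 to 0.0309 (Mt2) over both times. The lungs that turned a sign included permethrin 10000 ppm replicates 2 and 4 and isoniazid replicates 4 and 5, all of 14 days. The causes of these changes were not tested.

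Gclc at 14 days, permethrin 10000 ppm minus isoniazid, fell short of the threshold in 10 alternatives (1.06 to 1.27), 7 of them with 1 lung left out. Slc39a8 with permethrin 10000 ppm passed with array weights (-0.42, adjusted p = 0.0213), and Slc39a4 with isoniazid passed without control replicate 3 (0.54, adjusted p = 0.041) or isoniazid replicate 1 (0.54, adjusted p = 0.0291) of 14 days. The other 31 of 33 alternatives left this Slc39a4 difference short of the threshold. It was as low as 0.29 with no single lung left out. The replicate block, in which the replicate number entered the fit, left Mt1 at 1.01 for isoniazid at 7 days (SE 0.20) and changed no call of the 6 genes or of Gclc. Deviations of lungs that share a number had correlations of -0.34 to 0.37 (median 0.03, 33 of 133 pairs above 0.1). Those of lungs with different numbers had correlations of -0.32 to 0.40 (median -0.02, 122 of 532 pairs above 0.1). Of the 39 arrays, 13 correlated best with their own number. Whether the number marks a batch is not known. With the block, 7 genes in place of 4 passed for isoniazid at 14 days and 74 in place of 15 for controls at 14 against 7 days. Counts of genes past the threshold shifted widely with the fit: over both times they ran from 2 to 71 for isoniazid (51 as reported), 18 to 47 for permethrin 5000 ppm (29), 40 to 129 for permethrin 10000 ppm (65), 34 to 72 for permethrin 10000 ppm minus isoniazid (46), 23 to 72 for permethrin 5000 ppm minus isoniazid (54) and 0 to 4 for dose (1). At 7 and 14 days they ran from 1 to 72 (6) and 1 to 7 (4) for isoniazid, 9 to 25 (12) and 4 to 22 (17) for permethrin 5000 ppm, 20 to 45 (31) and 9 to 71 (28) for permethrin 10000 ppm, 15 to 42 (24) and 5 to 38 (26) for permethrin 10000 ppm minus isoniazid, and 0 to 278 (15) for controls. With the filter at the upper 40% of probe sets, Slc39a2 was not tested. Signal over background limits the dimmer genes, Slc39a14 among the 6.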
